A study of Mus musculus with 8 samples.

Results

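The replication-dependent histone genes encode the histones that package newly copied DNA. They were taken as every gene whose symbol follows the clustered histone nomenclature (H1f1 to H1f5, and the H2ac, H2bc, H3c and H4c series) and is not marked as a pseudogene, which gave 63 of the 19909 genes measured. By histone type these are 5 genes of the linker histone H1 and, for the core histones, 17 of H2A, 17 of H2B, 12 of H3 and 12 of H4. H2ac14 counts among them by symbol, although GENCODE vM21 annotates it as a pseudogene.

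Bulk RNA sequencing was done on haematopoietic stem cells (HSCs), the blood-forming cells of the bone marrow, from mice of genotype Gfplc3/Gfplc3, which make LC3 tagged with green fluorescent protein (GFP). LC3 coats autophagosomes and is broken down along with their cargo, so that a low GFP signal marks cells with active autophagy. AThi is the 33% of HSCs with the lowest GFP signal from 3 old mice aged over 24 months, and ATlo is the 33% with the highest GFP signal from the same mice. The young group is unfractionated HSCs from 2 mice aged 8 to 12 weeks, so a comparison with it also sets a sorted fraction against a whole population. All groups carry the reporter and were isolated at steady state, and the question was how AThi and ATlo cells of old mice differ from each other and from young HSCs.

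A cell needs these histones in bulk when it copies its DNA, so their genes are transcribed strongly in S phase, under the coactivator NPAT, and are kept low otherwise. Their mRNAs mostly have no introns and end in a conserved stem-loop in place of a poly(A) tail. The GENCODE annotation of some members, such as H2bc4 and H2bc6, does hold introns. The stem-loop is bound by SLBP, the pre-mRNA is cut with the help of the U7 small nuclear ribonucleoprotein, and the mRNA is degraded when DNA synthesis stops. The labels name total RNA and a low-input kit, NuGen Ovation Trio, and state no selection for poly(A) tails.

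The stem-loop, the element the genes share at their 3′ end, was searched in the GENCODE vM21 transcripts of the build GRCm38. The pattern was a stem of 6 paired bases around a loop of 4 bases. Its sequence was fixed except for the middle bases of the stem and the last base of the loop. Other forms of the element would therefore count as no match. It was found in 40 of the 63 genes, against 0.224% of the 21901 genes with a protein-coding transcript. Of the 23 genes without a match, 16 have under 45 annotated bases past the stop codon (12 have none and H2ac14 has no stop codon), where the element would lie. The other genes without a match reach further past the stop codon. They are H2bc4 (8296 bases), H2bc21 (2192), H2bc24 (1688), H2bc23 (1488), H4c1 (154), H3c8 (95) and H1f1 (48). These distances are genomic and can include introns. The 3 commonest forms are written 5′ to 3′ on the transcribed strand as DNA, with the paired stem in capitals.
Stem-loop of 24 genes of H1, H2A, H2B and H3, among them H1f4 (chr13:23620629-23622558, minus strand): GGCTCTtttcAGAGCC
Stem-loop of 6 genes of H4, among them H4c4 (chr13:23581598-23582735, plus strand): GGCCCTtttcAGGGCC
Stem-loop of 5 genes of H2B and H3, among them H2bc12 (chr13:22035870-22036345, plus strand): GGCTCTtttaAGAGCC
The stem of the H4 form differs from that of the others, and the loop differs in its last base between the first form and the last. The search let forms differ only at such places, so what they have in common was set in advance.

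The 63 genes lie in 3 clusters of GRCm38. A block of 24 genes spans chr13:21715763-22043676, a second block of 29 genes spans chr13:23531050-23934156, and 10 genes lie at chr3:96219865-96270132. Their start-site regions were read from RefSeq (GRCm38.p6), which matched 56 of the 63 genes by symbol, as windows of 300 bases with 250 before the start. For each of 7 motifs the windows that hold it on either strand were counted, with no overlap between motifs removed. Windows of H2A and H2B genes that start back to back overlap, so a single site can be counted for both genes. CCAAT was in 48 of 56 windows, against 37.4% of all 32851 promoters, and in 3 of 11 windows of H4. TATAAA was in 33 of 56, against 13.6%. The octamer ATTTGCAT was in 12 of 56, against 1.74%, with 7 of 14 H2B and 5 of 16 H2A windows. AAACACA, known as the H1 box, was in 4 of 5 H1 windows, against 7.18%. The E2F-type word TTTCGCGC was in 9 of 56, against 0.323%, and all 9 were of H2A or H2B. TTTGGCGC was in none of the 56 windows, against 0.514%, and TTTCCCGC was in 1, against 1.07%.

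The 250 bases before the RefSeq start of 3 genes are shown because these genes carry the results below: H1f5 and H2bc12 were called by both tools against ATlo and against young, and H4c4 is the most abundant member per length. Capitals mark the 7 motifs on either strand.
H1f5 (chr13:21780626-21780875, minus strand): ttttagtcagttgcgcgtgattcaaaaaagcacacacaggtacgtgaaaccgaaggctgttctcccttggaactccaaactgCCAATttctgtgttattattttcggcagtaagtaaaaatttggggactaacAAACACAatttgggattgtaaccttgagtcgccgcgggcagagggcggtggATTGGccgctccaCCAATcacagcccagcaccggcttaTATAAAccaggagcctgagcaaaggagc
H2bc12 (chr13:22035571-22035820, plus strand): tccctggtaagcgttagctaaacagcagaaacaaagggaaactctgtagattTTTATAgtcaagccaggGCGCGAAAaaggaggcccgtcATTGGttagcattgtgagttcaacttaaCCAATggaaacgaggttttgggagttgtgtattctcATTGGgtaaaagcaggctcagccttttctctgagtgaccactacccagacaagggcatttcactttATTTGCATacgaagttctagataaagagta
H4c4 (chr13:23581318-23581567, plus strand): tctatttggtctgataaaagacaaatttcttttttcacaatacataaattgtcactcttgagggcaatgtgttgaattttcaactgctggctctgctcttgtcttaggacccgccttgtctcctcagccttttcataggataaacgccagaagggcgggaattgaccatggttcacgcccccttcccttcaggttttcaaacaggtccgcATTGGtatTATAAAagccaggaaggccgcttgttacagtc
The H1f5 region holds the H1 box with CCAAT and TATAAA. The H2bc12 region holds the octamer, TTTCGCGC, CCAAT in 3 places and TATAAA far from the start, and is shared with H2ac12, which starts on the opposite strand within it. The H4c4 region holds CCAAT and TATAAA close to each other and neither the octamer nor an E2F-type word.

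All 63 genes were detected in every library, with at least 6 reads in each, and 59 had a mean of 100 or more normalized counts. A normalized count is a read count divided by a factor for the depth of its library. Depth was 33960216 to 45830216 reads in AThi, 54512285 to 61341946 in ATlo, and 45590508 and 44021141 in young libraries. Per exonic kilobase, over all libraries, H4c4 stood highest at 15440 normalized counts, followed by H2bc13 at 11981 and H2bc14 at 9772. The lowest was H2bc1, the testis form of H2B, at 114 normalized counts per kilobase. Of the 63 genes, 33 share 50% or more of their 50-base words with another gene, while H1f1, H1f5 and H2bc21 share none. Reads were 50 bases long per the labels' protocols, and the sources used here do not say how reads that match several genes were counted, so levels of near-identical members are uncertain. For 20 members a gene on the opposite strand overlaps, and 6 overlap a gene on the same strand, with H1f4 and H2bc6 overlapping each other.

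The sum of the HSC markers (12 of 12 measured; 4 of them higher in AThi than in ATlo) was 130829 to 155284 normalized counts in AThi, 94970 to 117416 in ATlo, and 131756 and 136581 in young. Erythroid markers (10 of 11 measured) summed to 26655 to 33133 in AThi, 35432 to 41768 in ATlo, and 29600 and 34265 in young, with none called between AThi and ATlo. Car2 alone made up most of this sum in every library, with 32381, 28368 and 23965 in AThi, 38009, 40295 and 30280 in ATlo, and 27049 and 28457 in young. T and NK markers (4 of 10 measured) summed to 2121 to 3172 in AThi, 1403 to 1598 in ATlo, and 1192 and 1326 in young, and Klrb1c of this list was called higher in AThi than in ATlo. Both old fractions lay apart from young in the sums of 3 lists. Megakaryocyte markers summed to 9542 to 11310 in AThi, 9649 to 13828 in ATlo, and 3700 and 4059 in young. Granulocyte markers summed to 7555 to 9358 in AThi, 6851 to 8040 in ATlo, and 3779 and 4323 in young. Prtn3 was the largest part of this sum in every library, with 4644, 5765 and 3639 in AThi, 3890, 4024 and 3105 in ATlo, and 2039 and 1684 in young. S100a8 and S100a9 of the same list overlapped between young and both old fractions. Multipotent progenitor markers lay the other way, at 6025 to 7136 in AThi, 6868 to 8092 in ATlo, and 11003 and 11641 in young. The part of all these lists in the histone results was not tested. B cell markers stood out in 3 libraries: their sum (6 of 13 measured; the others are not analysed here) reached 24001 normalized counts in the AThi library O12, 10167 in the ATlo library O12 and 10799 in the young library D12. In the other 5 libraries it was 654 to 992. Ighm, the heavy chain of IgM, made up most of it in those 3 libraries, with 20937 in AThi O12, 7314 in ATlo O12 and 8395 in young D12, against 25.3 to 63.5 in the rest. The same 3 libraries were also the highest in some haemoglobin and some monocyte and macrophage genes. In that order Hba-a1 had 255, 485 and 700, against 0 to 16.6 in the rest, and Hbb-bs 735, 2032 and 2344, against 80.5 to 279. Ly6c2 had 144, 142 and 59.1, against 2.08 to 12.1, and Adgre1 73.2, 141 and 229, against 0 to 27.0. Car2 and Lyz2, the largest parts of these 2 lists, did not stand out there. The part of all these transcripts was not tested either. Each count is also given without those 3 libraries, a setting chosen after seeing the data.

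Histone mRNA of all 5 types was lower in AThi than in ATlo. The deposited DESeq2 test of AThi against ATlo called 44 of the 63 genes lower and 0 higher at an adjusted p below 0.05, where 4.43% of all 17908 genes with an adjusted p were lower and 3.47% higher. In the authors' deposited table the median of the 63 log2 fold changes was -1.25, against 0.03 over all genes. It ranged from -2.08 for H2bc1 to 0.14 for H2bc21, and 62 of 63 values were negative. At an unadjusted p below 0.05, 58 genes were lower and 0 higher, against 8.6% and 9.39% of all genes. On the recovered reads, edgeR's quasi-likelihood test called 12 lower and 0 higher, against 1.14% and 0.301% of all genes. By type these were 3 of 5 of H1, 3 of 17 of H2A, 6 of 17 of H2B, 0 of 12 of H3 and 0 of 12 of H4. In 55 of the 63 genes every AThi library was below every ATlo library, against 10.9% of all genes, and in 0 every one was above, against 10.3%. In bulk samples, fewer cells of a type and less RNA per cell cannot be told apart.

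**Figure D1:**
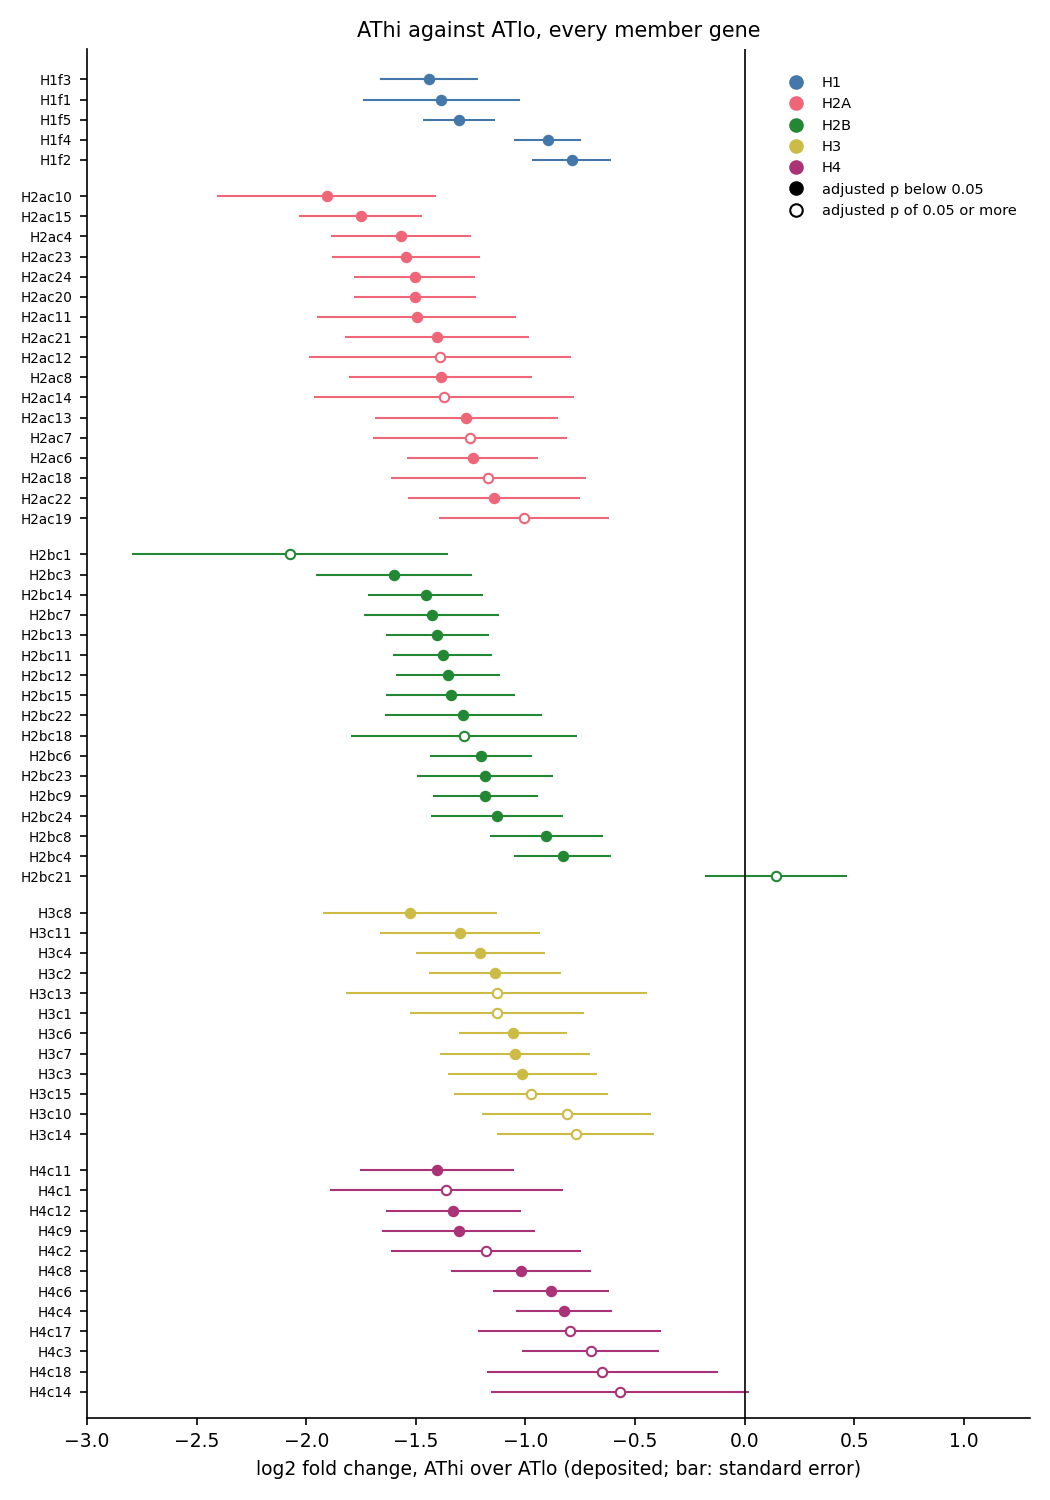
Log2 fold change of AThi over ATlo with its standard error for each of the 63 genes (rows, grouped by histone type and sorted by value), from the authors' deposited table. Filled points passed an adjusted p below 0.05 (44 genes) and open points did not (19 genes); the single value above 0 is H2bc21 at 0.14.

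The linker histones, which sit on the DNA between nucleosomes, all passed the test, with 5 of 5 genes lower and a median of -1.30. H1f5 had 1213, 1409 and 1385 normalized counts in the AThi libraries O10, O11 and O12, 2801, 3790 and 3308 in the ATlo libraries of the same tags, and 3927 and 4886 in young D11 and D12. The 3 groups did not overlap, with AThi lowest and young highest. For AThi against ATlo the authors' deposited table gives H1f5 -1.30 ± 0.17 (log2 fold change, SE) at an adjusted p of 1.47e-12. H1f3 had 1484, 1581 and 1650 normalized counts in AThi, 3398, 5294 and 4102 in ATlo, and 1874 and 3198 in young. For H1f3 the AThi libraries were below all others, and the difference from ATlo in the authors' deposited table was -1.44 ± 0.22 (SE; adjusted p 2.26e-08). H1f4, the linker histone with the most counts here, had 5551, 4771 and 5325 in AThi, 9184, 10751 and 9222 in ATlo, and 6143 and 8653 in young. Its groups of old libraries did not overlap either, and the authors' deposited table gives a log2 fold change of -0.90 ± 0.15 (SE; adjusted p 5.82e-07).

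Of the H2A genes, whose product pairs with H2B in the nucleosome core, 12 of 17 passed, and the median was -1.39, the lowest of the 5 types. H2ac15 had 331, 537 and 412 normalized counts in AThi, 1301, 1984 and 1033 in ATlo, and 1132 and 1018 in young. Every AThi library was below every other, and the authors' deposited table gives -1.75 ± 0.28 (SE; adjusted p 8.12e-08) against ATlo. H2ac24 had 255, 243 and 242 in AThi, 643, 897 and 559 in ATlo, and 484 and 705 in young, with no overlap of AThi with either group. In the authors' deposited table it was at -1.50 ± 0.28 (SE) against ATlo. H2ac20, on chromosome 3, had 938, 750 and 784 normalized counts in AThi, 1910, 2928 and 2169 in ATlo, and 939 and 2032 in young. For H2ac20 young D11 stood at the level of AThi O10 and young D12 among the ATlo libraries. H2ac7, H2ac12, H2ac14, H2ac18 and H2ac19 were not called.

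Of the H2B genes 14 of 17 passed, with a median of -1.28. H2bc12 had 489, 598 and 407 normalized counts in AThi, 1331, 1524 and 962 in ATlo, and 1174 and 1265 in young. AThi lay below both other groups, whose libraries overlapped, and the authors' deposited table gives -1.35 ± 0.24 (SE; adjusted p 1.36e-06) against ATlo. H2bc13 and H2bc14, the H2B genes with the most counts, averaged 2452 ± 717 and 2742 ± 536 normalized counts in AThi (SD, n = 3) against 6475 ± 572 and 7518 ± 2545 in ATlo (SD, n = 3). The authors' deposited table puts them at -1.40 ± 0.24 and -1.46 ± 0.26 (SE) against ATlo. H2bc21 was the exception in direction: it had 1347, 848 and 716 normalized counts in AThi, 1084, 1007 and 541 in ATlo, and 822 and 1181 in young. All 3 groups overlapped, and the authors' deposited table gives 0.14 ± 0.32 (SE; adjusted p 0.88) against ATlo. H2bc21, older symbol Hist2h2be, encodes the H2BE variant, known in the mouse from olfactory neurons, where its amount depends on activity. H2bc1, the gene with the most negative value, had 8.78, 24.2 and 12.6 normalized counts in AThi, 55.0, 76.2 and 62.2 in ATlo, and 38.4 and 72.9 in young. At these low counts its value of -2.08 ± 0.72 (SE) in the authors' deposited table missed the threshold, as did H2bc18.

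H3 and H4, which form the centre of the nucleosome, had 7 of 12 and 6 of 12 genes lower, with medians of -1.09 and -0.95. H3c4 had 272, 238 and 228 normalized counts in AThi, 561, 607 and 533 in ATlo, and 353 and 667 in young. AThi was lowest throughout, young D12 was the highest library, and the difference from ATlo was -1.21 ± 0.29 (SE; adjusted p 0.0015) per the authors' deposited table. H3c6 averaged 678 ± 115 normalized counts in AThi, against 1411 ± 272 in ATlo (SD, n = 3), and the authors' deposited table puts it at -1.06 ± 0.25 (SE). H4c4 had 12875, 15863 and 8244 normalized counts in AThi, 23772, 24690 and 17011 in ATlo, and 17853 and 20253 in young. It alone made up 73.3% to 78.2% of the summed H4 normalized counts in every library, and the authors' deposited table gives -0.82 ± 0.22 (SE; adjusted p 0.0046) against ATlo. Without ATlo O11 the refitted adjusted p of H4c4 was 0.057, and H3c2, H3c8, H4c6 and H4c9 lost their calls there too. H4c12 and H4c11 had larger differences, of -1.33 ± 0.31 and -1.40 ± 0.35 (SE) in the authors' deposited table, at 192 ± 52.0 and 205 ± 92.8 normalized counts in AThi against 483 ± 79.1 and 542 ± 61.7 in ATlo (SD, n = 3). edgeR's quasi-likelihood test called none of the 12 H3 and none of the 12 H4 genes, while 11 and 9 of them had an unadjusted p below 0.05 in the deposited DESeq2 test. With the mouse as a block, edgeR called H3c6 (adjusted p 0.044) and H4c4 (adjusted p 0.0209). The groups of H4c14 overlapped: it had 117, 161 and 550 in AThi, 253, 347 and 630 in ATlo, and 395 and 167 in young, and both O12 libraries were the highest. Within each mouse it was lower in AThi, with log2 ratios of -1.10 in O10, -1.10 in O11 and -0.20 in O12.

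Summed by type, the normalized counts of H1 were 10773 ± 415 in AThi, 22627 ± 3229 in ATlo (SD, n = 3 each) and 18199 ± 4927 in young (SD, n = 2). The H2A sum was 4047 ± 709 in AThi, 10986 ± 3489 in ATlo and 8373 ± 2337 in young, and the H2B sum was 14460 ± 2779 in AThi, 34060 ± 7234 in ATlo and 25919 ± 7689 in young. For H3 the sums were 4112 ± 688 in AThi, 8610 ± 2451 in ATlo and 7433 ± 3078 in young, and for H4 16196 ± 4578 in AThi, 29109 ± 5529 in ATlo and 25157 ± 2482 in young. The ratio of AThi to ATlo was thus 0.476 for H1, 0.368 for H2A, 0.425 for H2B, 0.478 for H3 and 0.556 for H4. These sums rest on a few abundant genes and carry no test. The AThi libraries lay below all ATlo libraries in each type, and ATlo O11 was the highest library in each type. Without ATlo O11 the deposited model refitted with DESeq2 called 25 of the 63 genes lower, with a median of -0.98, where 486 of all 17948 genes were lower. Without both libraries of mouse O11 it called 28, with a median of -1.13, where 424 of 17979 were lower. Without the 3 libraries highest in B cell markers it called 31 lower, with a median of -1.25, where 465 of 17593 were lower.

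**Figure D2:**
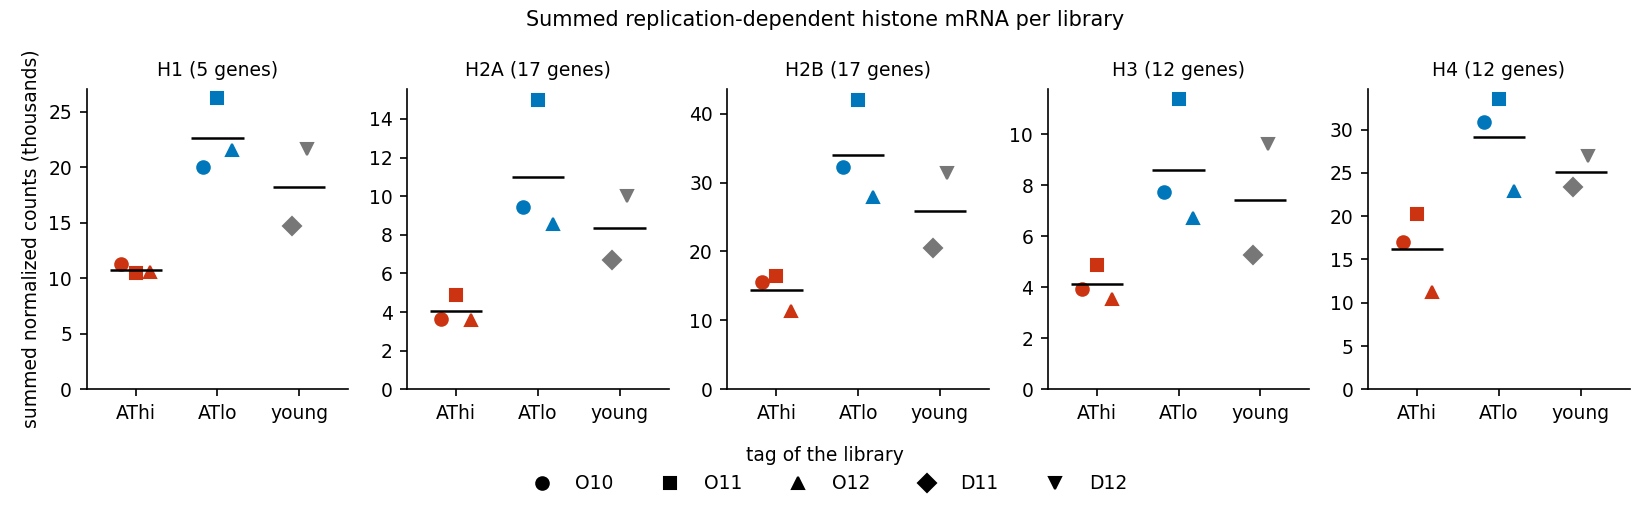
Summed normalized counts (axis in units of 1000) of the genes of each histone type, 1 panel per type and 1 point per library, with groups in the order AThi, ATlo, young and bars at the group means. Every AThi point lies below every ATlo point in all 5 panels, and the O11 library is the highest ATlo point.

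The old libraries come in pairs from the same mice, as the labels describe 3 paired replicates and the column tags O10, O11 and O12 occur in both fractions. Within mouse O10, 60 of the 63 genes were lower in AThi, with a median log2 ratio of -1.12 (1 added to each normalized count). Within O11 all 63 were lower, with a median of -1.35, and within O12 62 were lower, with a median of -1.16. Over all genes with a mean of 10 or more, 47.4% to 49.2% were lower in AThi within a mouse. H2bc21 was higher in AThi in O10 and O12, and H4c17 and H4c18 were higher in O10. With the mouse as a block, DESeq2 called 46 genes lower, against a background of 5.53%, and shared 43 of them with the deposited test. edgeR with the block called 19 lower, where 1.04% of all genes were lower.

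**Figure D3:**
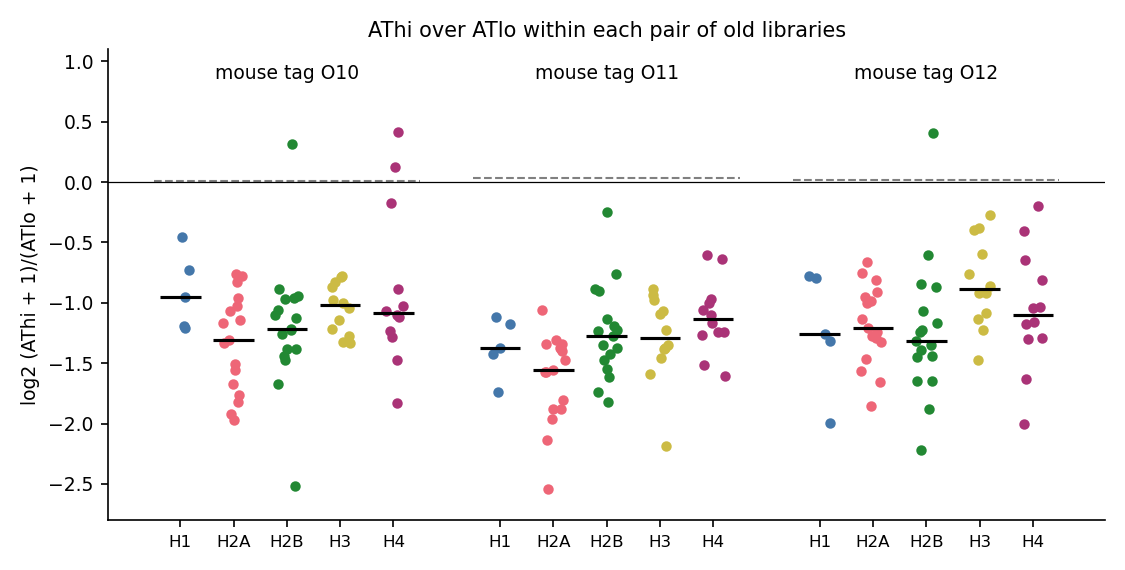
Log2 ratio of AThi to ATlo (1 added to each normalized count) for every gene within each pair of old libraries, by histone type; bars are the medians of a type, and the dashed line is the median over all genes of the pair. The type medians lie below 0 in all 3 mice, and points above 0 are 3 genes in O10 and 1 in O12.

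The genes were also counted by cluster. In the first chromosome 13 block 19 of 24 genes were lower with a median of -1.34, in the second 23 of 29 with -1.18, and on chromosome 3 2 of 10 with -1.07. The chromosome 3 genes called were H2ac20 and H2ac21, and these differences between clusters were not tested. Genes with a stem-loop in an annotated transcript had 29 of 40 called and a median of -1.18, and those without had 15 of 23 and -1.33. Genes that share under 50% of their 50-base words with another gene had 24 of 30 called with a median of -1.20, and those that share more had 20 of 33 with -1.28. By the RefSeq starts that were matched, 8 pairs of an H2A and an H2B gene start back to back, 164 to 249 bases apart. Within these pairs the fold changes of AThi against ATlo in the authors' deposited table differed, on the log2 scale, by 0.04 (H2ac12 and H2bc12) to 0.48 (H2ac8 and H2bc8). The GENCODE coordinates place further pairs back to back. Their values in the authors' deposited table were -1.50 and 0.14 (H2ac20 and H2bc21) and -1.50 and -1.13 (H2ac24 and H2bc24). For H2ac6 and H2bc4 they were -1.24 and -0.83, and for H2ac14 and H2bc14 -1.37 and -1.46.

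Some histone genes were lower in AThi than in young HSCs: 1 of 5 of H1, 4 of 17 of H2A, 6 of 17 of H2B, 3 of 12 of H3 and 0 of 12 of H4. The deposited DESeq2 test of AThi against young called 14 of the 63 genes lower and 0 higher, where 1.91% of all 19064 genes with an adjusted p were lower and 3.13% higher. In the authors' deposited table all 63 values were negative, with a median of -0.89, against -0.00088 over all genes. At an unadjusted p below 0.05, 44 were lower and 0 higher, against 6.19% and 7.62% of all genes. edgeR's quasi-likelihood test called 2 lower, H1f5 and H2bc12, and 0 higher, against 0.362% and 0.839% of all genes. In 46 of the 63 genes every AThi library was below both young libraries, against 14.0% of all genes, and in 0 above both, against 13.7%. The 14 genes called were H1f5, 4 of H2A (H2ac4, H2ac15, H2ac23 and H2ac24), 6 of H2B (H2bc3, H2bc7, H2bc11, H2bc12, H2bc13 and H2bc14) and 3 of H3 (H3c4, H3c8 and H3c11). None of the 12 H4 genes was called by either tool, with 6 at an unadjusted p below 0.05. Without AThi O11, the refitted DESeq2 test did call H4c4, H4c6 and H4c12 lower (adjusted p 0.010, 0.033 and 0.018). There 331 of all 18332 genes were lower. The same H4 genes were called without both libraries of mouse O11. The comparisons of AThi against young and of AThi against ATlo share the AThi libraries.

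H1f5 had the smallest adjusted p, 6.2e-18, at -1.72 ± 0.18 (SE) against young in the authors' deposited table. H2bc12 followed at -1.29 ± 0.26 (SE; adjusted p 8.5e-05 per the authors' deposited table), and H2bc11 at -1.16 ± 0.25 (SE). H2bc11 had 738, 807 and 554 normalized counts in AThi and 1319 and 1812 in young, with no overlap. H3c11 had 129, 203 and 143 in AThi and 340 and 564 in young, and its difference was -1.51 ± 0.41 (SE; adjusted p 0.007 per the authors' deposited table). For the most abundant gene, H4c4, the difference was -0.63 ± 0.24 (SE; adjusted p 0.13 per the authors' deposited table). The count depended on single libraries. Without young D12 3 genes were called lower (H1f5, H2ac15 and H2bc12), where 147 of all 18726 genes were. Without AThi O12 9 were called, where 507 of 18335 genes were. Without both libraries of mouse O10 it was 9, where 302 of 18751 genes were lower, and without those of mouse O11 22, where 321 of 19523 were. Without the 3 libraries highest in B cell markers H1f5 and H2ac15 were the 2 genes called lower, where 173 of 17593 genes were, and the median was -0.40, with 1 young library left that is assumed to vary like the other groups. H3c4 lost its call in 7 of the 8 fits that left out 1 library, all but that without young D11, and H2bc14 lost it without AThi O10, AThi O12 or young D12.

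No replication-dependent histone gene passed the test between ATlo and young HSCs. The deposited DESeq2 test of ATlo against young called 0 of the 63 genes, where 1.98% of all 18678 genes with an adjusted p were lower and 2.37% higher. At an unadjusted p below 0.05, 1 gene was lower and 5 were higher, against 7.06% and 7.23% of all genes, and edgeR's quasi-likelihood test called 0 lower and 0 higher, against 0.186% and 0.467%. In the authors' deposited table the median was 0.34, against 0.0072 over all genes, with 56 values positive and 7 negative. In 8 genes every ATlo library was above both young libraries, against 15.7% of all genes, and in H1f5 every one was below, against 15.1%. H1f3, with 0.75 ± 0.25 (SE), had the smallest adjusted p, 0.058, in the authors' deposited table. A missing call does not show that the levels were alike. Without young D12, H1f1, H1f3, H1f4 and H2ac20 were called higher in ATlo, where 392 of all 18340 genes were. H1f3 was the 1 gene called without ATlo O10, where 364 of 19490 genes were higher, and without both libraries of mouse O10, where 423 of 19137 were. Without the 3 libraries highest in B cell markers 7 genes were called higher, these 4 and H2bc6, H2bc13 and H2bc14, where 325 of 18365 genes were.

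The young libraries themselves differed. D12 was above D11 in 58 of the 63 genes, with a median log2 ratio of 0.56, while 31 of 51 S phase genes and 9986 of 19709 genes in all were higher in D12, with medians of 0.12 and 0.01. D12 is also the young library high in B cell markers and in the haemoglobin, monocyte and macrophage genes named with them. The part of these in the difference was not tested. By group means, young lay between AThi and ATlo for 56 genes and above both for 7: H1f5, H2bc18, H2bc21, H3c10, H3c11, H3c13 and H4c3.

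**Figure D4:**
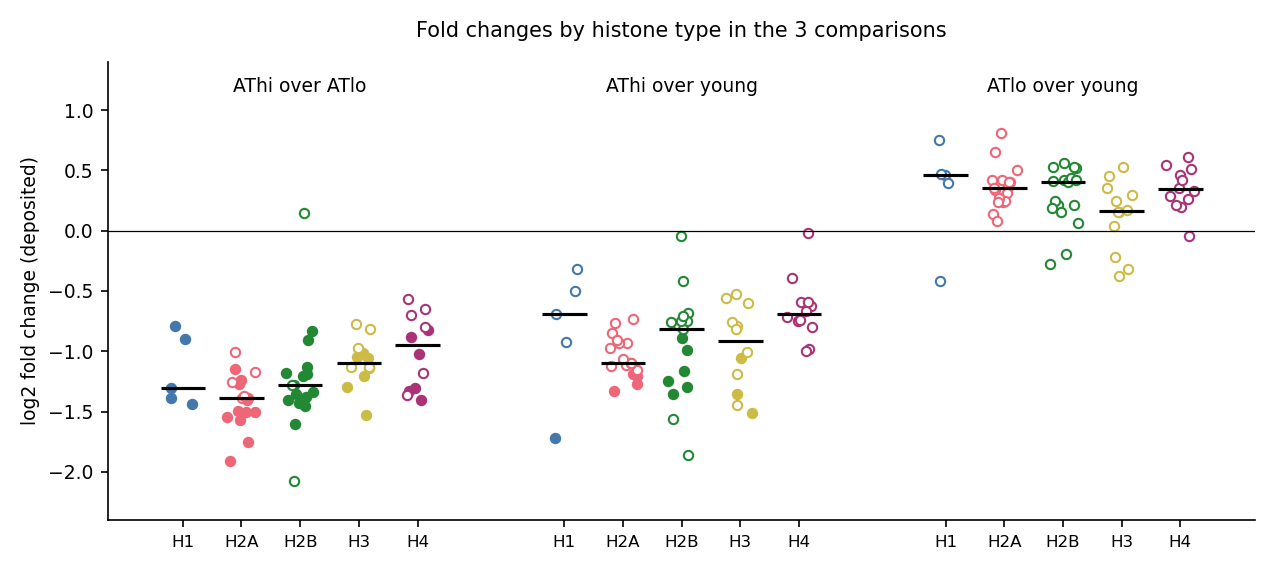
Log2 fold changes from the authors' deposited table for the genes of each histone type in the 3 comparisons, with filled points at an adjusted p below 0.05 and bars at the type medians. AThi over ATlo has 44 filled points, AThi over young 14 and ATlo over young 0; the comparisons share libraries.

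Within H1 mRNA the make-up differed as well. H1f5 took 10.8%, 13.4% and 13.1% of the summed H1 normalized counts in AThi, 14.0%, 14.4% and 15.3% in ATlo, and 26.7% and 22.5% in young, so both old fractions lay below both young libraries. H1f2 took 17.7%, 15.7% and 16.1% in AThi, 13.6%, 13.6% and 13.5% in ATlo, and 12.7% and 11.8% in young, with AThi highest. H1f4 was the largest part in every library, at 45.4% to 50.4% in AThi, 41.0% to 45.8% in ATlo, and 41.7% and 39.9% in young. These shares are not length-corrected and were not tested.

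**Figure D5:**
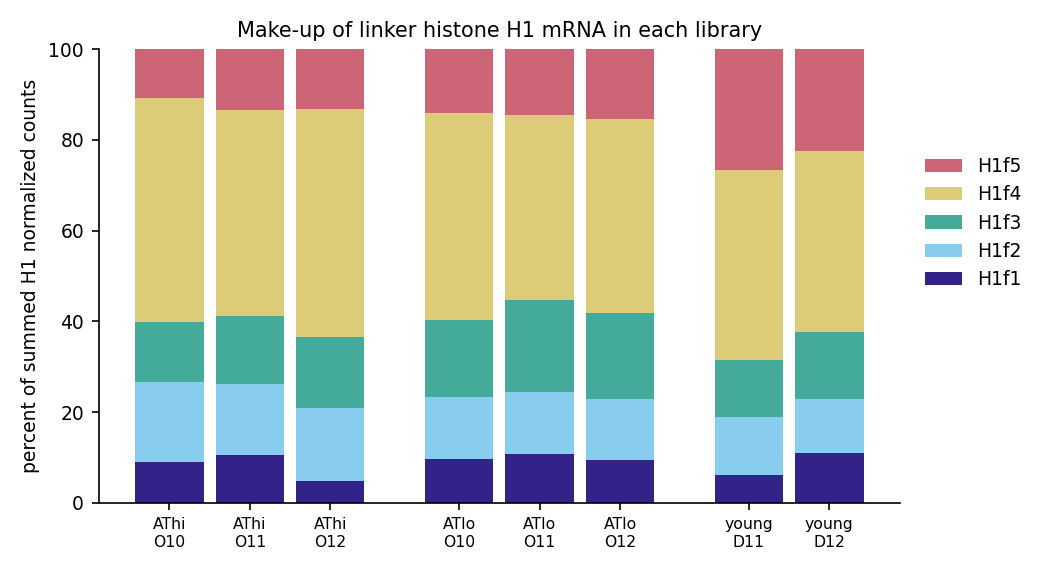
Share of each linker histone gene in the summed H1 normalized counts of each library (stacked bars, in percent), with AThi, ATlo and young libraries from left to right. The top segment, H1f5, covers 10.8% to 15.3% in the 6 old libraries and 22.5% and 26.7% in the young ones.

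Genes that work with histone mRNA were compared by the same deposited test of AThi against ATlo. Of 51 S phase genes, 43 were lower and 0 higher, with a median of -1.19, where 4.43% of all genes were lower. Rrm2, a subunit of ribonucleotide reductase, had 457, 828 and 665 normalized counts in AThi, 2479, 2536 and 2652 in ATlo, and 2188 and 1968 in young, and the authors' deposited table puts it at -1.97 ± 0.21 (SE) against ATlo. Its AThi libraries lay below all others. Per library, the summed histone counts divided by the summed S phase counts gave 0.770, 0.791 and 0.502 in AThi, 0.700, 0.785 and 0.536 in ATlo, and 0.553 and 0.722 in young. These ratios overlapped in all 3 groups.

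Of 23 genes for histone transcription and 3′ end processing, 7 were lower and 0 higher, with a median of -0.45. Slbp, whose protein binds the stem-loop shown above, had 867, 1554 and 1448 normalized counts in AThi, 2279, 2832 and 2617 in ATlo, and 2645 and 2463 in young. AThi lay below both groups, and the authors' deposited table gives -0.997 ± 0.22 (SE; adjusted p 0.000296) against ATlo. Casp8ap2, a component of the histone locus body, was also lower, at -0.53 ± 0.17 (SE) and an adjusted p of 0.024 per the authors' deposited table. Npat was at 0.03 ± 0.16 (SE; adjusted p 0.96 per the authors' deposited table), and Hinfp, a factor of H4 genes, Lsm10 and Lsm11, parts of the U7 particle, were not called. The other 5 genes called, Snrpb, Snrpd3, Snrpe, Snrpf and Snrpg, encode Sm proteins, which the U7 particle shares with spliceosomal particles.

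Of 20 genes of histone mRNA decay, 3 were lower (Eri1, the nuclease that trims the stem-loop end, Lsm2 and Lsm6) and 0 higher. Of 32 histone chaperones and import factors, 11 were lower and 0 higher. Nasp, a chaperone of H3 and H4, had 495, 732 and 1140 normalized counts in AThi, 1719, 2036 and 3173 in ATlo, and 1607 and 2326 in young, with -1.55 ± 0.32 (SE) against ATlo in the authors' deposited table. Asf1b, another, was at -1.49 ± 0.27 (SE), and Chaf1a, of the assembly factor CAF-1, at -0.56 ± 0.20 (SE; adjusted p 0.057) per the authors' deposited table. AThi lay below ATlo for all 3 genes in every library.

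Of 11 replication-independent histone variants, which are made outside S phase too, 5 were lower and 0 higher, with a median of -0.61. H2az1, encoding H2A.Z, had 11452, 11810 and 12281 normalized counts in AThi, 20006, 20337 and 20154 in ATlo, and 13904 and 15628 in young. The 3 groups did not overlap, and the authors' deposited table gives -0.77 ± 0.09 (SE; adjusted p 8.8e-14) against ATlo. H2ax and the centromere variant Cenpa were at -1.16 ± 0.18 and -1.11 ± 0.25 (SE) in the authors' deposited table. H3f3a and H3f3b both encode H3.3, and were at -0.30 ± 0.09 (SE; adjusted p 0.016) and -0.10 ± 0.15 (SE; adjusted p 0.79) per the authors' deposited table. Over these 5 lists edgeR's quasi-likelihood test called 32 S phase genes, 1 transcription and processing gene, 0 decay genes, 3 chaperones and 2 variants lower and 0 genes higher, against 1.14% of all genes lower and 0.301% higher. At an unadjusted p below 0.05, 5 decay genes were lower and 1 higher, and 0 genes of the other 4 lists were higher, against 8.6% of all genes lower and 9.39% higher.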

How the data were processed

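The tools named in the submitters' processing notes are STAR, featureCounts, DESeq2, FastQC and MultiQC, with the build GRCm38; their versions, the annotation, the strand setting and the handling of multiply mapped reads are not given there. RNA came from about 10000 HSCs per sample, was collected on 2 sort days and read as paired ends of 50 bases, per the labels' protocols; which library belongs to which day is not given. The authors deposited 3 tables of 19909 genes with a log2 fold change, its standard error, a Wald statistic (score), p-values and adjusted p-values, and a base mean and 8 normalized columns (signal), which are identical in the 3 tables. When each deposited signal column was divided by what a single read is worth in it, 100% of values came out as whole read counts within 0.01. Reads carry no molecular identifiers, so depth covers counting error only. Columns were matched to groups only, since their tags differ from the replicate numbers in the labels; equal tags of the old fractions were taken as the same mouse. Deviations of same-tag libraries from their group means correlated across 19709 genes at 0.058, 0.047 and 0.186 for O10, O11 and O12. For libraries of different tags the values were -0.107 to 0.045, so only the O12 value stood well apart.

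The main test is DESeq2's Wald test as the authors deposited it, adjusted by Benjamini-Hochberg over all genes and called below 0.05. The recovered reads went into fits with DESeq2 1.42.0 and edgeR 4.0.16 (quasi-likelihood) in R 4.3.3, after both were tested on simulated data. Python 3.11.15 was used for the rest. Per histone type, values are given for the genes with the smallest adjusted p or the highest mean. Of each related list they are given for those with the smallest adjusted p and a fixed set (Slbp, Npat, Nasp and others). H2bc1, H2bc21, H4c14 and the cluster, stem-loop and promoter groupings were picked after their values were seen. The members, lists and rules were chosen with earlier results of these data known. The alternatives were another tool and scaling, filters, a mouse block and leaving out libraries. The deposited table of upstream regulators was not used here.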

Additional observations from a re-analysis of the deposited data

How the results depend on the processing

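Histone genes stayed lower in AThi than in ATlo on the median under every alternative run, while the number called depended on the tool and on single libraries. For AThi against ATlo, 12 genes were called by edgeR with either scaling, 19 by edgeR with the mouse as a replicate block and 28 without mouse O11 (median -1.13), and leaving out 1 library gave 25 (without ATlo O11) to 45 genes, with medians of -1.40 to -0.98. The same pairing as a block in DESeq2 gave 46. The 45 genes were reached without AThi O11, where 643 of all 17946 genes were lower, and without ATlo O12, where 548 of 19105 were. For AThi against young, edgeR with either scaling called 2, and DESeq2 called 9 without mouse O10 and 22 without mouse O11. Leaving out 1 old library gave 9 (without AThi O12) to 18 genes (without AThi O11, where 331 of all 18332 genes were lower). Leaving out 1 library of any group gave medians of -1.17 to -0.54. The median was -0.40 without the 3 libraries highest in B cell markers. Fewer genes were called without those 3 libraries and without young D12, as given above. For ATlo against young, 1 was called without mouse O10, 7 without the 3 libraries (median 0.81), and 0 to 4 without 1 library, with medians of 0.08 to 0.64. Filters, the refit and the 2 groups alone kept each count within 1.5 times.

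The log2 ratio of the summed H1 counts, AThi over ATlo, was -1.14 when scaled by total reads. Leaving out 1 library gave, for AThi over ATlo, -1.15 to -0.95 (H1), -1.59 to -1.15 (H2A), -1.36 to -1.06 (H2B), -1.22 to -0.81 (H3) and -1.04 to -0.64 (H4). For AThi over young it gave -1.01 to -0.45, -1.31 to -0.73, -1.12 to -0.50, -1.22 to -0.35 and -0.83 to -0.43 in the same order of types. For ATlo over young it gave 0.061 to 0.62 (H1), 0.10 to 0.71 (H2A), 0.12 to 0.73 (H2B), -0.16 to 0.71 (H3) and 0.10 to 0.36 (H4). The H3 ratio turned to -0.04 without ATlo O11 and to -0.16 without young D11, and H3c2 lay between -0.027 (without young D11) and 0.88 (without young D12). The fold changes of genes named by rule were also followed, with each gene under each alternative as 1 case. For AThi against ATlo, 54 cases lost their call, 31 of them with edgeR, and 366 stayed the same. For AThi against young, 42 lost it, 14 of them with edgeR, 10 gained one and 236 stayed the same. For ATlo against young, 11 gained one, 1 changed sign and 312 stayed the same. The cause was not tested.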

Other observations

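Histone rows outside the symbol rule gave these normalized counts. H2ac5-ps, marked as a pseudogene, had 30.7, 31.9 and 30.3 in AThi, 75.4, 116 and 69.2 in ATlo, and 61.3 and 106 in young, with a log2 fold change of -1.49 ± 0.56 (SE; adjusted p 0.083) for AThi against ATlo in the authors' deposited table. H2aw had 562, 313 and 357 in AThi, 654, 251 and 494 in ATlo, and 590 and 417 in young, and H2bu2 had 247, 55.1 and 151 in AThi, 185, 88.9 and 193 in ATlo, and 164 and 145 in young. H4f16 had 67.3, 79.3 and 62.8 in AThi, 57.4, 74.6 and 31.1 in ATlo, and 37.4 and 234 in young. The groups of H2aw, H2bu2 and H4f16 overlapped, and their log2 fold changes of AThi against ATlo in the authors' deposited table were -0.18 ± 0.39, -0.04 ± 0.57 and 0.36 ± 0.72 (SE), none of them called. H1f0, a replication-independent linker histone, had 3424, 2890 and 1518 normalized counts in AThi, 3481, 3580 and 2468 in ATlo, and 1558 and 1352 in young. It was higher in ATlo than in young, at 1.13 ± 0.30 (SE; adjusted p 0.0085) per the authors' deposited table, while edgeR's quasi-likelihood test gave an adjusted p of 0.209.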
